A study of Mus musculus with 43 samples.

Results

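White fat of mice labelled Irs1-/- was compared between dietary restriction (DR) and ad libitum (AL) feeding. The genes described are the entries of the deposited expression table that had a usable estimate in both groups and a level of at least 1 FPKM (a level scaled to the length of the transcript and to the mapped fragments of the library) in one of them: 15774 of 42349 entries, a gene or a set of overlapping genes each. All groups were female mice of 15 months of age on the same chow. The groups named here are KO AL and KO DR (Irs1-/-, 3 libraries each), and WT AL and WT DR (Irs1+/+, 2 libraries each) as the reference for what DR did in mice with an intact gene. DR mice received less food stepwise from 10 weeks of age and stayed at 30% below the intake of their AL controls for 12 months, with 1 daily meal in the late afternoon. Irs1 was deleted in the whole body, so effects of the deletion within fat and effects that reached fat from other organs cannot be told apart. The depot was inguinal fat by the study's methods, and the labels say only white adipose tissue.

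White fat stores energy as triglyceride in adipocytes and releases it as fatty acids. Insulin, acting through its receptor and the docking proteins IRS1 and IRS2, raises glucose uptake, drives the synthesis of fatty acids and restrains lipolysis. Long-term restriction shrinks fat depots, and meal-fed animals swing between fasting and a short refeeding in which white fat turns carbohydrate into lipid. The comparison asks which of the expression changes of restricted fat occur where IRS1 is missing.

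Irs1 itself did not follow the labels. The group value was 5.37 FPKM in KO AL (authors' 95% interval 2.94 to 7.80) and 2.58 FPKM in KO DR (1.54 to 3.62), against 2.47 in WT AL and 6.56 in WT DR. The gene lies on the minus strand of chromosome 1 from 82233101 to 82291416 (GRCm38). Both KO values lay between the WT values. One value for the whole gene does not separate reads of the deleted part from reads of the rest, so it cannot check the labels. Directions below are therefore those of the groups labelled KO, and the difference between them in Irs1 (log2 -1.06, SE 0.44) did not pass the test.

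The table gave 1 value per group, with a 95% interval, and no value per library. The test is a Wald test of the log2 difference with an SE taken from those intervals, adjusted by the Benjamini-Hochberg method over all entries tested, and a gene is said to have risen or fallen where the adjusted p was under the FDR of 10%. With no value per library, the spread between the mice of a group could not be seen and no exact test was possible. Of the members, 222 were listed at 0 FPKM in one of the groups and could not be tested. Among the 15552 tested, 45 rose (0.289%) and 65 fell (0.418%) under DR in KO, 110 in all (0.707%), and the median difference of all tested entries was log2 0.01, with 50.6% of them higher under DR. At an unadjusted p under 0.05, 254 were higher (1.63%) and 373 lower (2.4%). If the authors' intervals describe single libraries and are narrowed by the square root of the libraries per group, 498 rose (3.2%) and 651 fell (4.19%). With t in place of the normal distribution, only 4 entries (Ighj4, Gm20721, Hist1h4i and mt-Ta) still passed, all of them with an SE under 0.05. The intervals were wide: the median SD was 36.1% of the FPKM in KO AL and 46.3% in KO DR, over entries of at least 1 FPKM. All FPKM of the table summed to 676866 in KO AL and 881860 in KO DR, and to 694909 in WT AL and 1040730 in WT DR. In bulk tissue, fewer cells of a type and less RNA per cell cannot be told apart.

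**Figure D1:**
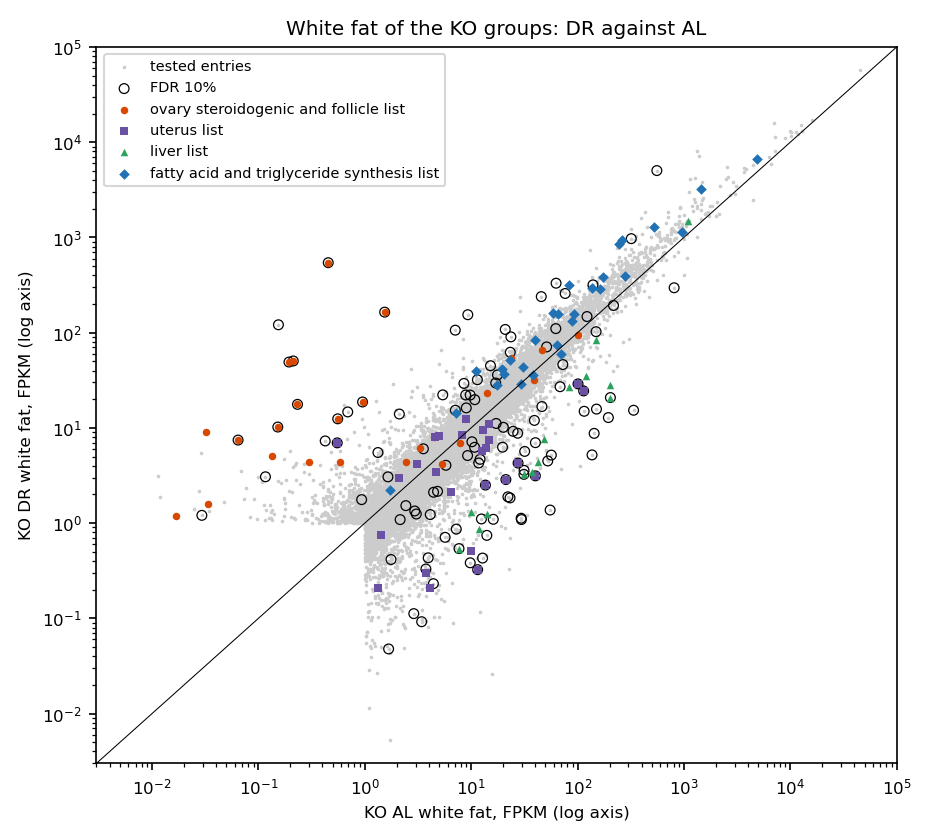
FPKM of each tested entry in KO AL (x) against KO DR (y), both on log axes, with the line of equal values. Ringed points passed the FDR of 10%; coloured points are members of the ovary, uterus, liver and fatty acid synthesis lists. The 9 ringed ovary genes had 1.54 FPKM or less in KO AL and lie far above the line, and the ringed points far below it include 7 uterus and 3 liver genes.

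Markers of adipocytes were abundant in both KO groups. Adiponectin (Adipoq) had 3809 FPKM in KO AL and 5232 in KO DR, the fatty acid binding protein Fabp4 had 6314 and 7051, carbonic anhydrase 3 (Car3) had 7112 and 8009, and adipsin (Cfd) had 2865 and 3803. Of 20 adipocyte genes tested, 17 were higher in KO DR, their median log2 difference was 0.44 and none passed the test. By these genes both groups were white fat. Both also held transcripts typical of other tissues, given next.

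The largest difference of all tested entries was in a gene of the ovary, and 9 ovary genes rose in KO DR. Cyp11a1, the enzyme that starts steroid synthesis by cutting the cholesterol side chain (chromosome 9, 58006411 to 58027023, plus strand, read here in an entry joined with the predicted gene Gm17322), had 543 FPKM in KO DR. It had 0.454 in KO AL (log2 10.23, SE 2.71, adjusted p 0.0331), 0.506 in WT AL and 0.168 in WT DR, and at most 3.70 in the 12 groups of liver, muscle and brain. Hsd3b1, the next enzyme of the pathway (chromosome 3, 98852194 to 98859794, minus strand), had 335 FPKM in KO DR and was listed at 0 in the other white fat groups. Only KO DR held these transcripts at such a level. The DR difference of Cyp11a1 in KO was not apart from that in WT by the test of their difference given below (adjusted p 0.426).

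The same pattern ran through the cholesterol carrier of the mitochondrion, the hormones of the follicle and enzymes of the corpus luteum. Star, which brings cholesterol to Cyp11a1, had 0.953 FPKM in KO AL and 18.7 in KO DR (log2 4.30, SE 1.06, adjusted p 0.0138). Inha, the inhibin alpha subunit made by granulosa cells, had 1.54 and 164 (log2 6.74, SE 1.47, adjusted p 0.00209). Amh, the anti-Müllerian hormone of growing follicles, had 0.152 and 10.2. Also higher were Hsd17b1, which makes oestradiol from oestrone (0.0644 and 7.45 FPKM), and Akr1c18, which inactivates progesterone (0.233 and 17.7). Akr1cl (0.194 and 49.2), the serine protease Prss35 (0.213 and 50.5) and the ligand Wnt4 (0.557 and 12.5) rose with them. In WT AL and WT DR, Akr1cl had 0.277 and 2.21 FPKM and Prss35 had 0.0309 and 1.30. Of 12 genes of the ovary list tested in WT, 8 were higher under DR, 4 were lower and none passed. The 9 genes that rose in KO are the called members of a list of ovary genes written after the values had been seen, so their number is a description. Of its 30 genes in the table, 27 reached 1 FPKM in KO DR and 11 did so in KO AL, so most of the 25 that were tested passed the filter only through the group in which they were high, and no median is given for them.

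Other ovary genes were higher without passing the test. Nr5a1, the nuclear receptor that drives steroidogenic genes, had 0.0321 FPKM in KO AL and 8.99 in KO DR (adjusted p 0.226), the activin subunit Inhba had 0.299 and 4.41 (adjusted p 0.112), and the luteinising hormone receptor Lhcgr had 0.0170 and 1.20. Genes of the oocyte were low: Gdf9 had 0.572 and 3.02 FPKM, and the zona protein Zp3 was listed at 0 and at 0.832. On a list of 8 adrenal cortex genes, also written after the values were seen, the enzymes Cyp11b1 and Cyp21a1 had at most 0.60 FPKM in both groups. Of its 4 genes tested none passed, with Akr1b7 at 0.0115 and 3.09 FPKM (log2 8.07, SE 7.76), Sult2a1 at 2.25 and 0.119, and Mc2r at 11.9 and 11.2. The list summed to 117 FPKM in KO AL and 291 in KO DR, most of it from Mrap (102 and 275), which adipocytes express too, and with the narrowed intervals 1 gene rose and 1 fell. Foxl2, a transcription factor of granulosa cells that uterine stroma also expresses, and Wt1, which mesothelium expresses too, had 5.27 and 7.80 FPKM in KO AL and 4.15 and 6.98 in KO DR. Summed over the list, the level was 253 FPKM in KO AL, 1537 in KO DR, 381 in WT AL and 212 in WT DR. Widely expressed members hold part of each sum, such as Ephx1 with 100.4 FPKM in KO AL, 93.9 in KO DR, 249 in WT AL and 38.6 in WT DR.

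The size of these ovary values was uncertain. The authors' interval of Cyp11a1 in KO DR ran from 0 to 2362 FPKM and that of Inha from 0 to 462, and 7 of the 9 called genes had intervals that overlapped between KO AL and KO DR. Hsd17b1 (2.70 to 12.2 FPKM in KO DR) and Wnt4 (3.73 to 21.2) did not overlap. Wnt4 was not limited to the ovary, with 4.68 to 14.1 FPKM in the skeletal muscle groups, a range that holds its KO DR value. In the 12 groups of liver, muscle and brain, Inha reached 19.1 FPKM (in brain), Amh 3.195, Star 0.576 and Hsd3b1 0.439. These maxima lay below the KO DR values of the same genes. Mgarp, a mitochondrial protein of steroidogenic tissues (0.154 and 121 FPKM, adjusted p 0.0855), and Lama1, Gsg1l and Tmem178 also rose with overlapping intervals. How the ovary transcripts spread over the 3 KO DR libraries cannot be read from a group value.

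Several genes of the uterus had the opposite pattern and stood out in KO AL. Hoxa10, a homeobox gene of the uterus (chromosome 6, 52231197 to 52240854, minus strand), had 21.2 FPKM in KO AL (14.2 to 28.2) and 2.87 in KO DR (1.83 to 3.90), and 6.5 and 5.09 in WT AL and WT DR. It fell by 2.89 on the log2 scale (SE 0.35, adjusted p 6.03e-13). Hoxa10 also had 4.11 to 8.08 FPKM in the skeletal muscle groups, and at most 0.0226 in liver. Hoxa11 (27.6 and 4.27 FPKM in KO AL and KO DR), the homeobox gene Msx1 (40.2 and 3.14) and the transcription factor Hand2 (13.6 and 2.51), which mediates progesterone action in uterine stroma, also fell. So did the relaxin receptor Rxfp1 (11.5 and 0.325), the matrix protein Tgfbi (114 and 24.4) and the transcription factor Sox17 (101 and 29.0), which endothelium expresses as well. Of 28 uterus genes, a list also written after the values were seen, 26 were tested, and 7 fell and 1 rose. Of the list, 25 genes reached 1 FPKM in KO AL and 20 did so in KO DR, so some passed the filter only through KO AL, and no median is given for them. Sprr2f, the one that rose, is a cornified envelope gene that oestrogen induces in the uterus (0.551 and 6.96 FPKM).

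Some epithelial genes also stood out in KO AL, while others were higher in KO DR. The tight junction gene Cldn3 (chromosome 5, 134986214 to 134987472, plus strand) had 337 FPKM in KO AL and 15.3 in KO DR, and 2.64 and 2.68 in WT AL and WT DR. It fell by 4.46 on the log2 scale (SE 0.93, adjusted p 7.35e-04). Cldn3 had 336 to 519 FPKM in the liver groups and at most 7.31 in muscle. The zinc importer Slc39a4 (52.5 and 4.50 FPKM) fell, as did Hsd11b2, which inactivates glucocorticoids (31.4 and 3.58), and Plekhs1 (55.3 and 1.37). Also lower past the test were Il17rb (14.0 and 0.744), Enpp3 (22.2 and 1.89), Ctla2a (115 and 14.9), Gdf7 (5.69 and 0.709) and Sall1 (3.75 and 0.330). Pax8, of the epithelium of the reproductive tract, had 13 and 1.94 FPKM without passing the test, and Foxj1, of ciliated cells, had 0.560 and 6.79 (adjusted p 0.120). Wfdc2, a secreted protein of such epithelia, had 104 and 19.2 FPKM in KO AL and KO DR but 0.207 and 0.246 in WT AL and WT DR. Krt19, a keratin of simple epithelia, had 55.9 and 41.3, and the oxytocin receptor Oxtr 18.1 and 51.9. The milk protein genes Csn1s1 and Wap were listed at 0 in both KO groups. Of 19 mammary epithelium genes tested, 8 were higher in KO DR, 11 were lower and Cldn3 alone passed. Of the list, 16 genes reached 1 FPKM in KO AL and 19 in KO DR, so some, such as Krt5, passed the filter only through KO DR. The higher ones included the basal keratin Krt5 (0.0990 and 3.05 FPKM; log2 4.94, SE 1.85) and lipocalin 2 (Lcn2, 6.67 and 38.0), and with the narrowed intervals 5 of the 19 rose and 2 fell. Oxtr and Lcn2, above 1 FPKM in both KO groups, were higher, and Cldn3 and Wfdc2 were lower, so epithelial genes did not share 1 direction. In the smooth muscle list, also written after the values were seen, 1 of 11 genes was higher in KO DR and none passed, with Acta2 at 279 and 191 FPKM, Tagln at 163 and 161, and Myh11 at 50.4 and 21.1.

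**Figure D2:**
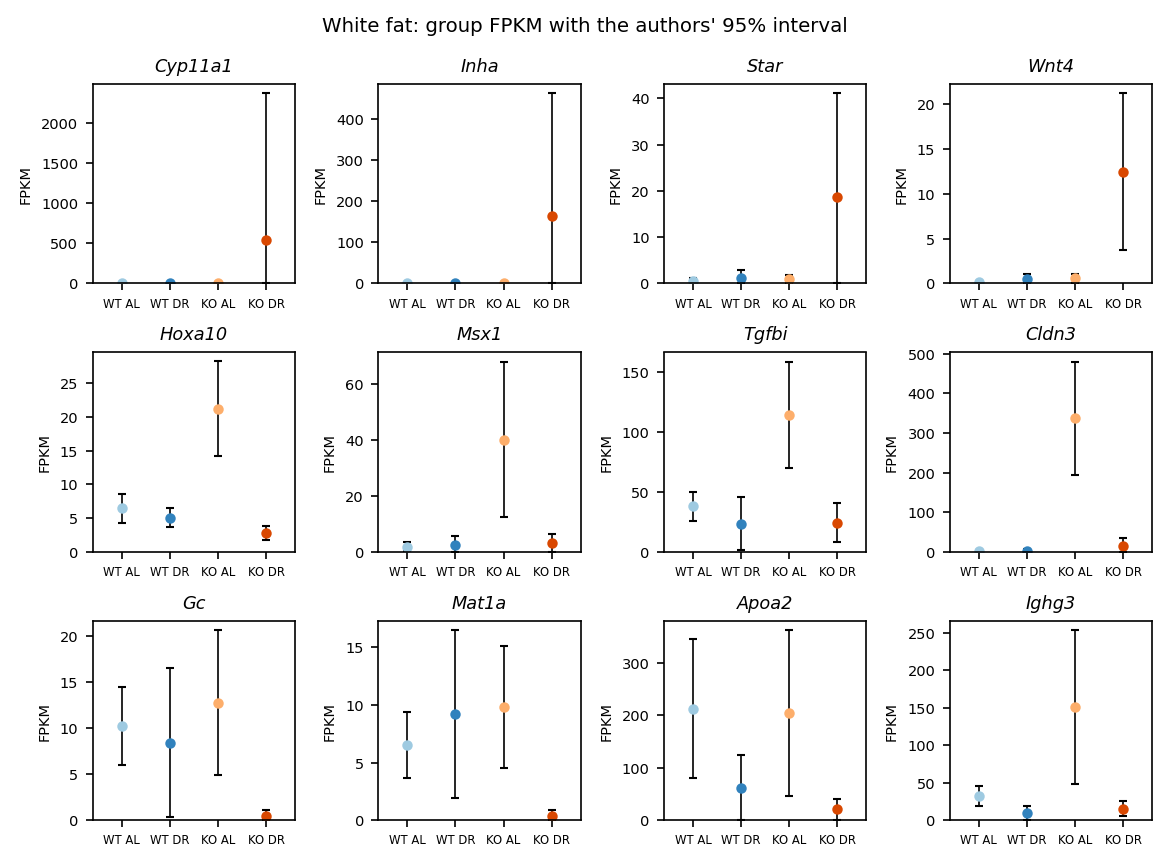
FPKM (y) with the authors' 95% interval in the 4 white fat groups (x) for ovary genes (top row), uterus and epithelium genes (middle row) and 3 liver genes with Ighg3 (bottom row). The ovary genes stand out in KO DR with intervals that reach 0 for 3 of 4, these uterus and epithelium genes stand out in KO AL, and the 3 liver genes are lowest in KO DR.

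Transcripts of the liver were present at a low level in 3 of the 4 white fat groups and lowest in KO DR. Gc, the vitamin D binding protein, had 10.2 FPKM in WT AL, 8.45 in WT DR and 12.8 in KO AL, but 0.430 in KO DR (log2 -4.90, SE 1.24, adjusted p 0.0204). Mat1a, which makes S-adenosylmethionine, had 6.55, 9.16 and 9.80 FPKM in those 3 groups and 0.383 in KO DR. The apolipoprotein Apoa2 (204 and 20.8 FPKM in KO AL and KO DR), Serpina1a (31.3 and 3.25), the fibrinogen chain Fgb (7.69 and 0.540), and haemopexin (Hpx, 16.1 and 1.10) fell as well. So did the fatty acid binding protein Fabp1 (56.7 and 5.18), the apolipoprotein Apoa5 (12.5 and 1.11) and plasminogen (Plg, 7.25 and 0.866). Albumin (Alb) had 203 and 28.5 FPKM without passing the test (adjusted p 0.156). Of 14 liver genes, 13 were lower in KO DR, 3 fell and the median was log2 -3.11. Of the list, 14 reached 1 FPKM in KO AL and 12 in KO DR, so some passed the filter only through KO AL. The one that was higher, Cyp2e1 (1083 and 1471 FPKM), is a gene that adipocytes express too. Without it the summed level was 964 FPKM in KO AL, 219 in KO DR, 987 in WT AL and 540.3 in WT DR. The 4 liver groups of the study held at least 17208 FPKM of Alb. Cyp3a41a (2.89 and 0.112) and Cyp3a41b (3.43 and 0.0922), liver enzymes so alike that their reads may have been split between them, fell in KO and fell in WT too.

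Of 200 immunoglobulin and T cell receptor segments tested, 7 fell and none rose, where 0.418% and 0.289% of all entries did, and no marker of B cells passed the test. The 7 were the constant region Ighg3 (151 FPKM in KO AL and 15.8 in KO DR; log2 -3.26, SE 0.67), the variable segments Igkv2-109 (195 and 12.8), Ighv2-9-1 (143 and 8.76) and Ighv5-15 (29.5 and 1.13), Gm16710 (137 and 5.21), the lambda segment Iglv3 (29.7 and 1.09) and the joining segment Ighj4 (809.7 and 296). Igkc, the constant region of the kappa light chain, had 4488 and 2452 FPKM and Ighm 1002 and 962, and neither passed. Of 19 genes of B cells and lymph nodes tested, 16 were lower in KO DR, with a median of log2 -0.30, and none passed. Cd79b, a chain of the B cell receptor complex, had 16.9 and 16.6 FPKM, and the lymph node chemokine Ccl21a had 26.8 and 16.3. Among joining segments, Ighj1 was at 329.8 FPKM in KO AL and listed at 0 in KO DR, and Ighj2 was listed at 0 and at 340.3. Variable and joining segments resemble one another, so reads can be split among them.

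The levels of these ovary, uterus, liver and antibody genes moved with the contrast between KO DR and KO AL, and their part in the results below was not tested. Leaving out the marker lists of other tissues and the immunoglobulin and T cell receptor segments, 339 tested entries, 29 entries rose and 40 fell. The p-values were adjusted anew over the 15213 entries left, so the counts also moved through the adjustment. Gc, Mat1a, Hpx, Fabp1, Apoa5, Plg, Plekhs1 and Slc39a4, given above, are on none of the lists left out and stayed in.

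Outside those groups, Tmem86a rose with a narrow interval in KO AL; the gene encodes a lysoplasmalogenase of lipid membranes (chromosome 7, 47050601 to 47054777, plus strand). It had 20.9 FPKM in KO AL (18.5 to 23.3) and 108 in KO DR (64.5 to 152), a log2 difference of 2.37 (SE 0.30, adjusted p 8.14e-12), and 19.8 and 18.2 in WT AL and WT DR. Only KO DR stood apart from the other white fat groups. Acat2 and Tmem97, genes of cholesterol handling, rose: Acat2, the cytosolic acetoacetyl-CoA thiolase (9.79 and 22.1 FPKM; log2 1.18, SE 0.31), and Tmem97, a sterol-regulated membrane protein (7.10 and 15.3; log2 1.11, SE 0.26). The potassium channel Kcnk3 had 9.0 and 16.2 FPKM (log2 0.85, SE 0.18). Elovl3, an elongase of brown and cold-exposed fat, had 0.692 and 14.7 FPKM (log2 4.41, SE 0.97). Sfxn1, the mitochondrial serine carrier, had 17.7 and 36.0, the microtubule protein Map6 had 23.3 and 62.3, and the myelin-type membrane protein Pllp had 3.56 and 6.03. The intervals of KO AL and KO DR did not overlap for any of these 8 genes. Rims4 (1.33 and 5.52), Ppan in a joined entry (23.6 and 90.4), Tmem192 (10.8 and 19.8) and the histone variant gene H2afy2 (0.934 and 1.77) rose too.

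A further part of the calls was in small RNAs and pseudogenes. The 15552 tested entries held 148 small RNAs and 2021 pseudogenes. Of the 45 rises, 10 were small RNAs and 4 were pseudogenes. Of the 65 falls, 6 were small RNAs and none was a pseudogene. Small RNAs were thus a larger share of both sets than of all entries, and pseudogenes a smaller one. Among the rises were the 5.8S ribosomal RNA entry n-R5-8s1 (557 and 5039 FPKM), Snord13 (7.09 and 106), Snord118 (8.55 and 29.3) and Snord87 (15.2 and 45). Gm24265 (2.11 and 14.0) and Gm25381 (5.41 and 22.2) were small RNAs as well. The pseudogenes Rps2-ps6 (62.9 and 331), Gm5921 (45.6 and 239) and Gm10233 (76.5 and 258) rose together with a joined entry of Rpl13a (320.1 and 971). The libraries were made from polyadenylated RNA, which holds few such small transcripts, and reads of pseudogenes can belong to their parent genes. Of the 110 calls, 9 had an SE under 0.1 log2, such as mt-Tt, which fell from 218 to 193 FPKM. The entry joining Hnrnpa3 with Gm24574 had 9.30 and 154 FPKM in KO AL and KO DR, and 58.8 and 5.36 in WT AL and WT DR.

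Further genes that fell had other roles. Spry4, an inhibitor of receptor tyrosine kinase signalling, had 4.13 FPKM in KO AL and 1.23 in KO DR (log2 -1.75, SE 0.29), and it fell in WT as well, from 5.73 to 1.80. Klf10, a transcription factor induced by TGF-beta, had 11.8 and 4.28 FPKM, and the antiproliferative gene Btg1 had 20.1 and 10.1. Sh3pxd2a, a scaffold of invasive protrusions, had 19.7 and 6.28 (log2 -1.65, SE 0.30). The scaffold Iqgap1 (10.2 and 7.15) and the receptor Lpar6 (5.79 and 4.05) fell by less than 2-fold with narrow intervals, and Iqgap1 fell in WT too (11.4 and 6.49). Pdgfra, the receptor that marks fat progenitors, was read in an entry joined with Mir7025 and fell from 31.9 to 5.67 FPKM (log2 -2.49, SE 0.60). Pdgfra had 9.91 FPKM in WT AL and 4.66 in WT DR. It was the one gene of 25 on the stromal list to pass. The most abundant members of that list were Gsn (1987 and 1664), Dcn (495 and 511), Clec3b (281 and 472) and Dpt (176 and 151). The heat shock gene Hspa1b had 39.3 and 12.0 FPKM and its near copy Hspa1a 13.3 and 7.98, so reads may be shared, and of 27 chaperones tested only Hspa1b passed, with Hsp90ab1 at 437 and 661. Dio2, the deiodinase that activates thyroid hormone, fell from 3.94 to 0.432 FPKM, and had 0.115 in WT AL and 0.136 in WT DR. The mitochondrial carrier Slc25a48 (23.2 and 1.84), Irg1, which makes itaconate in macrophages (1.68 and 0.0477), the chromatin factor Arid5b (4.44 and 2.11) and the ubiquitin ligase Ube3a (2.43 and 1.53) fell as well. Irg1 had 0.0280 FPKM in WT AL and 0.00919 in WT DR. Pdgfra, Dio2, Slc25a48 and Irg1 were thus highest in KO AL, as several uterus and epithelial genes were. Whether they share a source with those genes was not tested.

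Genes of fat metabolism were mostly higher in KO DR, and few passed the test. Of 28 genes of fatty acid and triglyceride synthesis, 25 were higher in KO DR, with a median of log2 0.94 against 0.01 for all entries tested, and none passed. Fatty acid synthase (Fasn) had 1440 FPKM in KO AL and 3218 in KO DR, with a KO DR interval up to 69420. ATP citrate lyase (Acly), which supplies its acetyl-CoA, had 83.1 and 319 FPKM (log2 1.94, SE 1.86). The elongase Elovl6 had 58.9 and 160.4 (log2 1.45, SE 0.99), the desaturase Scd1 had 4832 and 6599, the lipogenic regulator Thrsp had 523 and 1276, and Pck1, of glyceroneogenesis, had 962 and 1138. The SE of the most abundant genes was large, 14.98 for Fasn and 3.49 for Scd1, so their differences were not detectable at this precision. In WT the same list had a median of log2 1.66, with 26 of 28 higher and 5 risen (of 14925 entries tested there, 39 rose, 0.261%, and 46 fell, 0.308%, 0.57% in all). The median of all entries tested in WT was log2 -0.17, with 40.8% of them higher under DR. Elovl6 went from 3.44 to 126 FPKM and Acly from 38.4 to 748 there. Elovl6 stood at 58.9 FPKM in KO AL against 3.44 in WT AL, and at 160.4 in KO DR against 126 in WT DR.

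Sterol and glucose genes gave similar values. Of 23 genes of sterol synthesis and uptake, 19 were higher in KO DR, Acat2 passed, and the median was log2 0.91. Pmvk, of the mevalonate pathway, had 33.7 and 96.9 FPKM, Ebp 48.0 and 81.8, the sterol sensor Insig1 38.9 and 49.0, Msmo1 17.3 and 56.6, and squalene epoxidase (Sqle) 2.82 and 8.97, while Hmgcs1, at the head of the pathway, had 44.7 and 20.1. Of 27 genes of glucose uptake and glycolysis, 24 were higher, none passed and the median was log2 1.02. Pyruvate kinase (Pkm) had 236 and 771 FPKM (log2 1.71, SE 0.71), lactate dehydrogenase A (Ldha) 354 and 1033, aldolase A (Aldoa) 916 and 2106, and transketolase (Tkt, joined with Mir3076) 451 and 1283. Of 80 nuclear genes of the respiratory chain, 77 were higher, with a median of log2 0.66 in KO and 0.65 in WT, and none passed. Atp5b had 2190 and 3477 FPKM and Cox7b 821 and 1401. Of 44 proteasome genes, 37 were higher (median log2 0.48), with Psmb4 at 102 and 142 FPKM, and of 84 cytosolic ribosomal proteins 52 were higher (median 0.12). None of either list passed. Of 20 mitochondrially encoded genes tested, 19 were higher and the 3 that passed were transfer RNAs, with mt-Co1 at 12562 and 15305 FPKM and mt-Cytb at 11906 and 12155. With intervals narrowed by the square root of the libraries, where 3.2% of all entries rose and 4.19% fell, 2 of the 28 synthesis genes, 6 of the 27 glycolysis genes, 8 of the 23 sterol genes and 7 of the 80 respiratory genes rose, and 1 sterol gene fell.

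**Figure D3:**
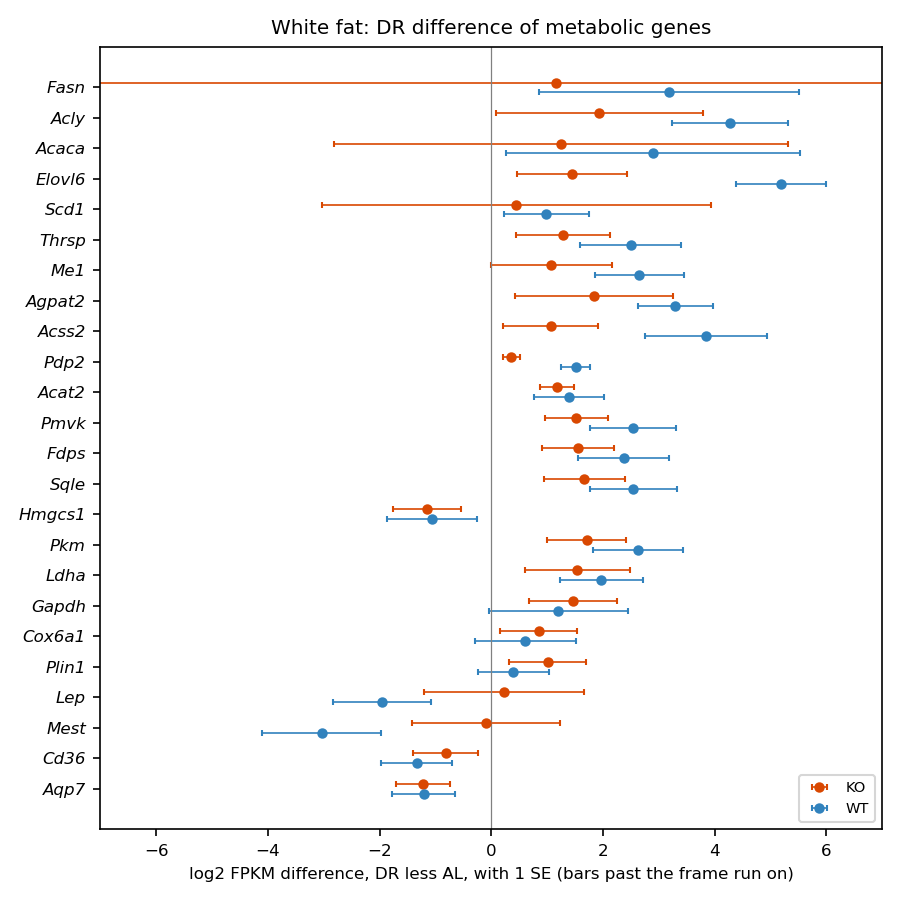
Log2 FPKM difference between DR and AL (x) for named metabolic genes (y) in KO and in WT, with 1 SE. Fatty acid, sterol and glycolysis genes lie to the right of 0 in both genotypes apart from Hmgcs1, and Cd36 and Aqp7 lie to the left in both. Lep and Mest lie near 0 in KO and to the left in WT, and the bar of Fasn in KO has an SE of 14.98 and runs past the frame.

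Fatty acid oxidation and lipolysis showed less. Of 31 oxidation genes, 19 were higher and the median was log2 0.11, with Hadha at 267 and 397 FPKM, Ech1 at 253 and 266, and Ucp2 at 211 and 248. Of 23 genes of the lipid droplet and lipolysis, 16 were higher (median log2 0.38). The droplet coat protein perilipin (Plin1) had 495 and 999.6 FPKM, Cidec, which fuses droplets, had 2033 and 2382, and the lipases Pnpla2 and Lipe had 1315 and 2126, and 405 and 694. The fatty acid transporter Cd36 (353 and 201) and the glycerol channel Aqp7 (21.9 and 9.41) were lower. None of these passed. Of 13 brown and beige genes tested, Elovl3 and Kcnk3 rose and Dio2 fell, and uncoupling protein 1 (Ucp1) had 9.87 and 4.48 FPKM (log2 -1.14, SE 0.97). Kcnk3 and Elovl3 are also expressed outside brown fat, and Cidea (34.1 and 32.1 FPKM) and Cox8b (43.5 and 67.1) did not pass. Dio2 was above 1 FPKM in KO AL alone among the white fat groups.

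No hormone of fat or marker of its expansion passed the test in KO. Leptin (Lep) had 222 FPKM in KO AL (39.1 to 405) and 260.3 in KO DR (0 to 732), a log2 difference of 0.23 (SE 1.44), against 616 in WT AL and 158 in WT DR. Resistin (Retn) had 311 and 650.4 FPKM in KO AL and KO DR, and the retinol carrier Rbp4 had 329 and 473. Of 17 adipokines tested, 12 were higher and none passed (median log2 0.12). Of 14 genes that track fat expansion, 5 were higher in KO DR and the median was log2 -0.30, against -1.40 with 2 of 14 higher in WT. The imprinted gene Mest had 152 and 143 FPKM in KO AL and KO DR, and 391 and 47.6 in WT AL and WT DR. The caveola proteins Cav1 and Ptrf had 1064 and 1079, and 373 and 289 in KO, Nnat 637 and 404, and Wisp2 17.4 and 33.5.

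Of 34 genes of insulin and IGF signalling, 14 were higher, the median was log2 -0.20 and none passed. The other docking proteins Irs2 and Irs3 had 22.4 and 19.7, and 31.5 and 55.0 FPKM. The insulin receptor (Insr) had 8.84 and 6.11, the insulin-responsive glucose transporter Slc2a4 had 49.4 and 85.5, and the receptor-binding adaptor Grb14 had 2.34 and 13.4 (log2 2.52, SE 1.22). Igf1 had 110.5 and 115 FPKM and its binding proteins Igfbp4, Igfbp6 and Igfbp7 had 213 and 214, 212 and 399, and 419 and 468.

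Immune, vascular and matrix genes were slightly lower as lists, with no call. Of 29 macrophage genes, 12 were higher and the median was log2 -0.26, with lysozyme (Lyz2) at 238 and 183 FPKM and the complement chain C1qb at 104 and 110.2. In WT none of 30 was higher and the median was -1.46, against -0.17 for all entries tested there. Of these 30, all reached 1 FPKM in WT AL and 25 did so in WT DR. Of 11 MHC class II genes 3 were higher (median log2 -0.20), of 18 T and NK cell genes 3 (-0.48) and of 5 neutrophil genes 2 (-0.32). Of the T and NK cell list, 18 genes reached 1 FPKM in KO AL and 13 in KO DR. Some of them thus passed the filter only through KO AL, the group in which they were higher. Cd74, the class II invariant chain, had 338 and 395 FPKM, H2-Aa 301 and 253, and the T cell chemokine Ccl5 30.6 and 17.9. Of 16 endothelial genes 4 were higher (median log2 -0.34), with Cldn5 at 230.4 and 176 FPKM and Cdh5 at 57.1 and 46.7. Of 45 collagen and matrix genes 9 were higher (-0.40), with Sparc at 684 and 580.0 and Prelp at 179 and 197. The WT medians of these 2 lists were -0.97 and -1.0. Haemoglobin genes were higher in KO DR, with Hba-a1 at 1339 and 8023 FPKM, Hbb-bs at 1154 and 4140, and the haem enzyme Alas2 at 17.6 and 77.2, and none of 7 red cell genes passed. Skeletal muscle genes were lower in KO DR in 27 of 34 (median log2 -0.70), among them Mylpf (308 and 86.3) and Acta1 (337 and 327), with no call. All 34 reached 1 FPKM in KO AL and 32 did so in KO DR, so some passed the filter only through KO AL. In WT 21 of 24 were higher and 5 rose. Of the list, 16 genes reached 1 FPKM in WT AL and 23 in WT DR, so some passed the filter there only through WT DR. The WT count also covers fewer genes than the KO count. Of the 2 keratinocyte and 3 oviduct genes tested, none passed.

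Clock and hormone-responsive genes, which follow feeding time, gave no call. Of 19 clock genes, 12 were higher and none passed. Nr1d1, a repressor within the clock, had 54.7 and 94.4 FPKM in KO. Dbp, an output of the clock, had 20.5 and 81.6 FPKM in KO AL and KO DR, and 14.1 and 101 in WT AL and WT DR, and Arntl, the activator of the clock, had 1.92 and 0.348 in KO and 2.75 and 0.770 in WT. The glucocorticoid target Fkbp5 had 9.83 and 18.0 FPKM (log2 0.87, SE 0.38). The metallothioneins Mt1 and Mt2 had 185 and 161, and 203 and 93.6, Angptl4, which inhibits lipoprotein lipase, had 248 and 227, and Txnip had 1058 and 614. Of 20 glucocorticoid and fasting genes, 7 were higher in KO (median log2 -0.19) and 1 of 20 in WT (-1.04). Cdkn1a, an inhibitor of the cell cycle, had 26.1 and 22.9 FPKM in KO and 41.5 and 11.2 in WT. Of 19 immediate early genes 8 were higher (median log2 -0.11), and of 20 acute phase genes 8 (-0.042), where Hpx alone passed. Jun had 43.1 and 26.4 FPKM, Klf4 41.6 and 38.6, complement C3 243 and 251, and haptoglobin (Hp) 188 and 168.

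**Figure D4:**
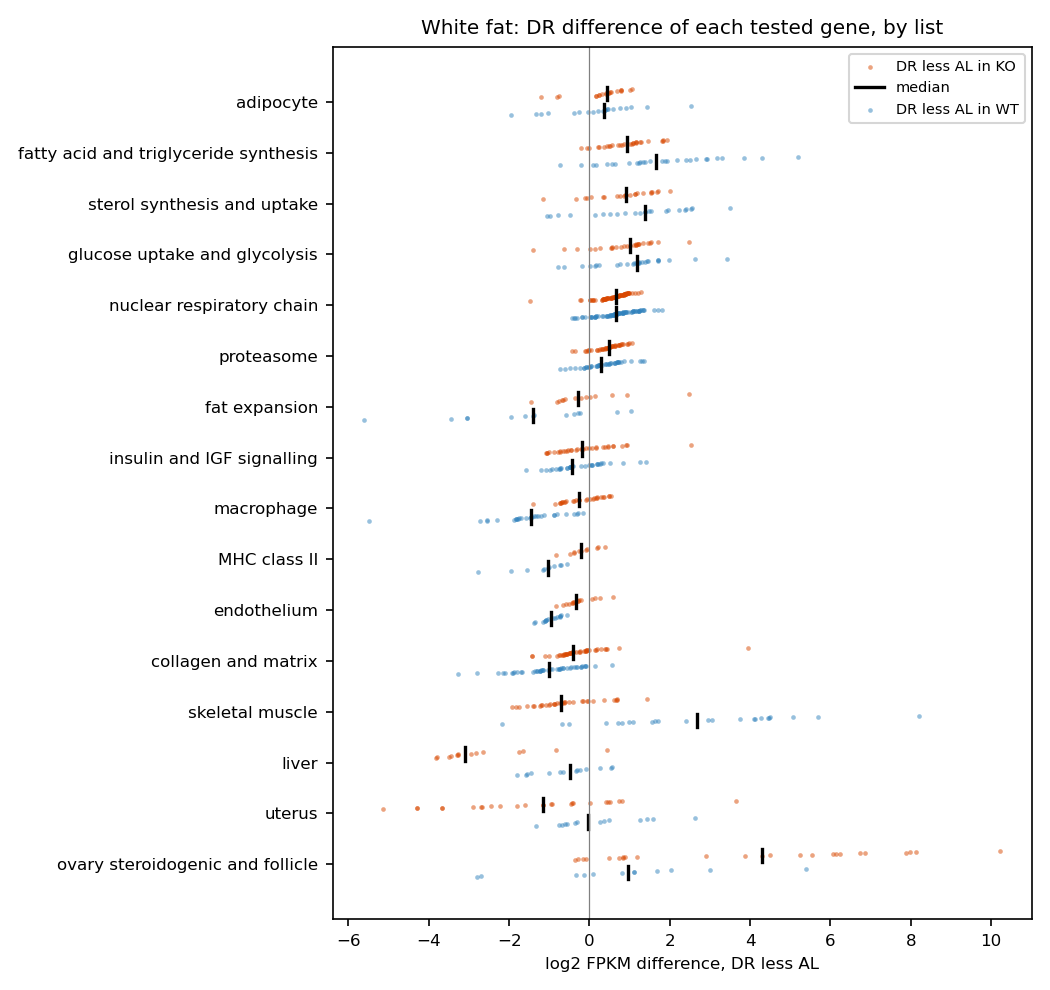
Log2 FPKM difference between DR and AL (x) of each tested gene in 16 lists (y), in KO and in WT, with the median of each list as a black bar. The metabolic lists sit right of 0 in both genotypes. The medians of the fat expansion, macrophage, MHC class II, endothelium and matrix lists are closer to 0 in KO than in WT, and those of the muscle and liver lists part by more than 2 between genotypes. The median of all tested entries was 0.01 in KO and -0.17 in WT. Members of the ovary and uterus lists differ in which group brought them past the filter, so their medians are a description of the points drawn. The same holds in WT for the muscle and macrophage lists and in KO for the liver and muscle lists. The muscle medians are over 34 genes in KO and 24 in WT.

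Whether DR acted differently in the KO and WT groups was tested by the difference of the 2 DR differences. The median of this difference over the 15727 entries tested was log2 0.13, and 57.9% of them were positive. Of these entries, 10 passed with a more positive DR difference in KO (0.0636%) and 9 with a more negative one (0.0572%), 0.121% in all. With the narrowed intervals these counts were 90 (0.572%) and 98 (0.623%). Sfrp5, a secreted Wnt inhibitor that rises with fat mass (chromosome 19, 42197971 to 42202252, minus strand), had 47.7 FPKM in KO AL and 52.1 in KO DR, against 304 in WT AL and 6.26 in WT DR. Its DR difference was log2 0.13 (SE 0.53) in KO and -5.60 (SE 0.88) in WT, and these differed by 5.73 (SE 1.03, adjusted p 5.90e-05). Dock8, an activator of small GTPases in leukocytes, had 3.81 and 1.82 FPKM in KO, and 15.8 and 1.03 in WT. The DR differences of Tmem86a in KO and WT differed by 2.49 (SE 0.41, adjusted p 4.87e-06). Lum, a proteoglycan on the stromal list, was more negative in KO and had 32.7 and 28.2 FPKM in KO and 20.9 and 47.7 in WT. Hoxa10, Mat1a and Slc25a48 were more negative in KO. The muscle genes Myh4 and Ckm were more negative as well, and they rose in WT (Myh4 from 0.0699 to 20.6 FPKM and Ckm from 2.2 to 114). No gene of the lipogenic, sterol, glycolytic, macrophage or matrix lists passed this test, and with the narrowed intervals 2 synthesis genes were more negative and 1 macrophage and 1 matrix gene more positive in KO. On the fat expansion list, Sfrp5 alone passed. None of 22 ovary list genes tested passed (adjusted p 0.426 for Cyp11a1 and 0.736 for Inha), and neither did Cldn3 (0.964). Of 24 uterus list genes tested, Hoxa10 alone passed. With the narrowed intervals, 4 ovary list genes were more positive and 1 more negative in KO, and 6 uterus list genes were more negative. A test of single genes does not test the median of a list, so whether the larger WT medians given above differ from those in KO was not tested.

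**Figure D5:**
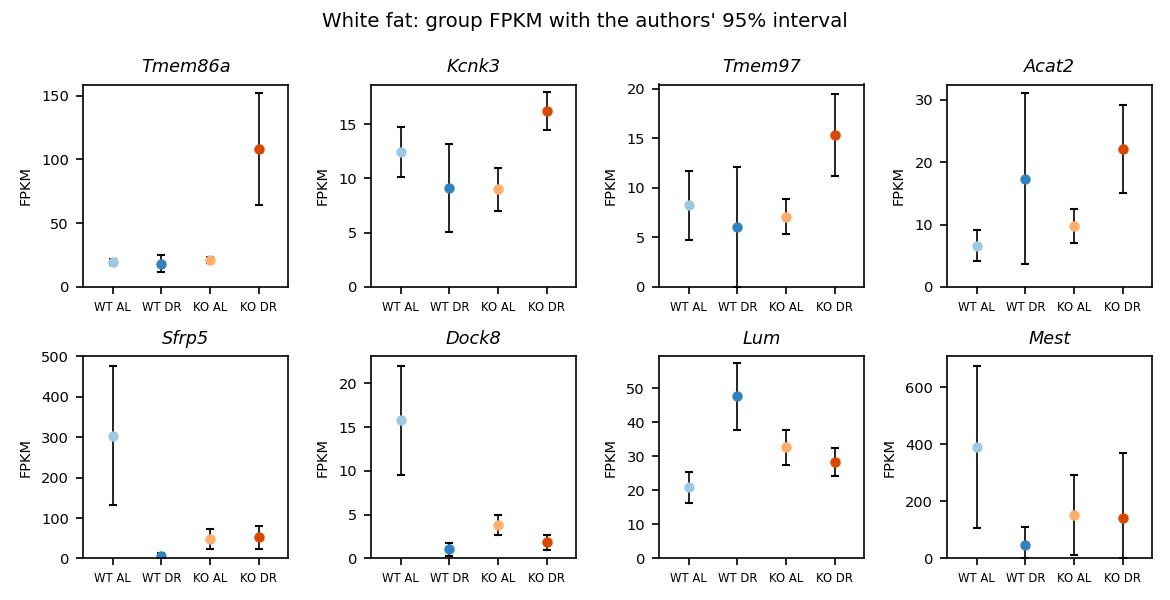
FPKM (y) with the authors' 95% interval in the 4 white fat groups (x) for 8 genes. Tmem86a, Kcnk3 and Tmem97 are highest in KO DR, Acat2 is higher under DR in both genotypes, Sfrp5, Dock8 and Mest are highest in WT AL, and Lum is highest in WT DR.

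Of the 45 genes that rose in KO, 28 were tested in WT, 19 of those were higher under DR there and 3 rose. The 3 were the small RNAs Snord13, Gm23935 and n-R5-8s1 (723 and 5570 FPKM in WT AL and WT DR). Of the 65 that fell, 47 were tested in WT, 32 were lower there and 5 fell. Of all entries tested in both genotypes, 9755 of 14506 had the same direction, which is about the share seen in both of these sets. The 2 that rose in KO and fell in WT were Gm20721 and Hist1h4i, both with very narrow intervals. In the other tissues of the KO mice, DR moved 84 of 13747 entries tested in liver (0.611%), 70 of 14008 in skeletal muscle (0.5%) and 56 of 15349 in brain (0.365%). Of the 45, 1 rose in liver, 5 in muscle and 2 in brain, where 0.276%, 0.214% and 0.143% of all entries tested rose. Of the 65, 2 fell in liver, 5 in muscle and none in brain, where 0.335%, 0.286% and 0.222% of all entries tested fell.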

How the data were processed

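White fat RNA was sequenced from polyadenylated libraries on the Ion Proton. Per the labels and the submitters' processing notes, the authors trimmed reads with cutadapt 1.5, mapped them to GRCm38 and estimated levels with Cuffdiff 2.2.1. The deposited table holds FPKM per gene and group, pooled over libraries, with a 95% interval and a status. It gives no counts and no value per library, so depth was unknown. The labels list 2 WT DR libraries.

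Entries needed status OK, more than 0 FPKM in both groups and at least 1 FPKM in one of them. The SD was (upper bound − FPKM)/2. Log2 differences were tested by a two-sided Wald test against the normal distribution, with SE by the delta method and Benjamini-Hochberg adjustment (statsmodels 0.14.6, scipy 1.17.1), and the interaction with summed variances. The procedure was tested on simulated data limited to well expressed entries with narrower intervals. It therefore does not cover calls with wide intervals, such as Cyp11a1 and Inha. Coordinates are from GENCODE M21.

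Members and gene lists were chosen with earlier results of these data known. By rule, the text names Irs1, the 15 largest calls per direction at 1 FPKM in both groups, the calls and highest members of each list, the 5 largest interactions per direction and 5 entries listed at 0. Other genes were named after their values were seen, and not all rule-named genes are printed. Alternatives covered the spread, distribution, pseudocount, filters, centring and entry classes.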

Additional observations from a re-analysis of the deposited data

Results flagged for a closer look

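The DR differences of 10 entries are singled out here because the test of the difference between KO and WT passed the FDR of 10% and theirs were the largest values in each direction; all are log2 values of the KO difference less the WT difference. The 5 positive ones were Igkv17-121 at 7.93 (SE 1.76), the entry of Hnrnpa3 and Gm24574 at 7.51 (SE 1.29), Sfrp5 at 5.73, Snord13 at 2.89 (SE 0.33) and Dock8 at 2.87 (SE 0.72). The kappa segment Igkv17-121 had 10.9 FPKM in KO AL, 24.9 in KO DR, 61.5 in WT AL and 0.579 in WT DR. Snord13 rose in KO and, by less, in WT (10.6 and 21.4 FPKM in WT AL and WT DR). Dock8, Sfrp5 and Igkv17-121 fell in WT.

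The 5 negative ones were Myh4 at -9.07 (SE 1.64), Ckm at -6.57 (SE 1.36), Slc25a48 at -5.82 (SE 1.48), Mat1a at -5.16 (SE 1.25) and Hoxa10 at -2.53 (SE 0.47). Myh4, a fast myosin, and Ckm, the muscle creatine kinase, belong to the skeletal muscle list. Slc25a48 had 23.2 FPKM in KO AL and 1.84 in KO DR, and 0.311 and 1.40 in WT AL and WT DR. Hoxa10 is on the uterus list and Mat1a is a liver enzyme, and the values of other such genes are given above. With 2 WT libraries per group and no value per library, the share of any 1 library in these values was not tested.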

How the results depend on the processing

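Counts are given as higher and lower under DR, beside 45 and 65 in KO and 39 and 46 in WT, and as more positive and more negative in KO for the interaction, beside 10 and 9. With the SD divided by the square root of the libraries, they were 498 and 651 in KO, 182 and 228 in WT, and 90 and 98 for the interaction. With t in place of the normal distribution, they were 3 and 1 in KO, 0 and 0 in WT (39 and 46 with the normal distribution), and 2 and 0 for the interaction. A pseudocount of 0.1 FPKM gave 105 lower in KO. A pseudocount of 1 FPKM gave 136 lower in KO, 77 lower in WT, and 19 and 25 for the interaction. Counting entries whose intervals did not overlap gave 153 lower in KO and 148 lower in WT. Among alternatives chosen after seeing the data, leaving out the marker lists of other tissues gave 29 and 40 in KO, and protein-coding entries alone gave 19 higher in WT. The other 60 counts stayed within 1.5 times. Centring on the median turned Igfbp4 to log2 -0.00819 in KO. The table does not say whether its intervals describe a group mean or single libraries.

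No paired analysis was possible because the table holds 1 value per group, and for the same reason no library was left out in turn.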
